A study of Mus musculus with 45 samples.

Results

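Between E16.5 and E18.5, the last days of mouse gestation, sorted GFP+ve samples of the heterozygous mouse small intestine gained RNA of most stem cell markers, nutrient transporters and mucosal defence genes tested, and of the brush border peptidase Anpep. They held less RNA of Shh, of the imprinted growth genes H19 and Igf2, and of most collagens and other matrix genes. Markers of mesenchyme and other cell types fell beside the matrix genes, and the part of cell composition was not tested. The comparison takes 4 of the 15 sorted-cell libraries of the series, which holds 45 samples in all, and covers the 48452 genes of the table outside X and Y, of 52636 in all. All 4 libraries came from embryos heterozygous for Lgr5-DTReGFP, an allele in which a cassette for the diphtheria toxin receptor fused to enhanced GFP is knocked into Lgr5 and disrupts it, so that every embryo kept a single intact Lgr5 copy and the Lgr5 promoter drove the GFP. The E16.5 group (HE, heterozygous) was 2 pools, each of 1 litter, with 7 embryos in pool 1 and 8 in pool 2. The E18.5 group was 2 single embryos. Whole small intestine was dissociated, GFP+ve single cells were sorted by flow cytometry, and total RNA was sequenced as paired reads. Since pools of embryos were set against single embryos, the stage cannot be told apart from pooling, from sequencing depth or from any difference in preparation that went with it. Other sorted libraries are set beside these 4 below: E16.5 pools of 2 and 6 KO embryos, homozygous for the allele, and cells of adults aged 2 months. The adults were Lgr5-DTReGFP HE (duodenum and ileum) or of an Lgr5-Cre line given tamoxifen before harvest, either HE or with Lgr5 deleted (cKO).

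In the fetal gut, villi rise first and the dividing cells are left in the intervillus regions between them, from which the crypts form after birth. Lgr5 is a receptor for R-spondins, secreted proteins that keep the Wnt receptors at the cell surface, and it is itself a Wnt target that marks the intervillus cells and later the intestinal stem cells (ISCs). Around birth the epithelium takes on the tasks of milk digestion, absorption and defence, while signals such as hedgehog and BMP pass between the epithelium and the mesenchyme beneath it.

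The libraries held 1275949 and 1982484 reads on genes in the E16.5 pools and 4336398 and 4565902 in the E18.5 embryos, so that 1 read was worth 0.784, 0.504, 0.231 and 0.219 CPM in that order. The values were the CPM of the authors, read counts scaled to the same total in each library and not divided by gene length, and each is compared below only with values of the same gene or the same list, in the order pool 1 and pool 2, then embryo 1 and embryo 2; ± after a log2 fold change (E18.5 minus E16.5) is its SE. A change written as a fold is the ratio of mean CPM, whereas log2 fold changes are on the log2(CPM + 1) scale, which understates the change of low genes. A gene was tested where 2 or more of the 4 libraries reached 1 CPM, and was called where limma on log2(CPM + 1) gave a Benjamini-Hochberg adjusted p under 0.1 and a change of more than 1.5-fold on that scale. Of 17841 genes tested, 8872 were called, which is 49.7%. Of all tested genes, 5451 (30.6%) were called higher at E18.5 and 3421 (19.2%) lower. A log2 fold change beyond 3 was reached by 256 of the genes called higher and 179 of those called lower. The median over all tested genes was 0.23 on the log2 scale, and the medians of gene lists below are read against it; it was 0.11 with TMM scaling, which sets the bulk of genes level between libraries, under which 53.7% of the calls were higher in place of 61.4%. With TMM scaling the medians of the goblet cell, neonatal endocytosis, cell cycle and glucocorticoid lists below turned from 0.08 to 0.13 into -0.06 to -0.01. The groups did not overlap in any of the 8872 called genes, nor in 13615 of the 17841 tested. No called gene could therefore change its direction when 1 library was left out. The median absolute log2 difference was 0.342 between the E16.5 pools, 0.159 between the E18.5 embryos and 0.713 between the stages. Over the same 17841 genes, 756 were called without E18.5 embryo 1 and 748 without embryo 2, against 9701 and 9376 without E16.5 pool 1 or pool 2, and all 8872 called genes kept their direction in each of these 4 fits. The counts without an E18.5 embryo changed with the filter on low values, but what lowered them was not tested. Without an E18.5 embryo the spread within a stage comes from the E16.5 pools alone, with or without a new filter. Its part in the counts was not tested. When the filter was applied again to the 3 libraries left, an alternative added after the data were seen, 16362 and 16360 genes were tested without E18.5 embryo 1 or 2. Counts of calls kept without an E18.5 embryo are given below in both ways, first over the same genes and then, as refiltered, with the filter applied again. Many genes that fell were tested only through their E16.5 values. With the filter applied again without an E16.5 pool, 39 of the 51 called genes of the hedgehog, BMP, Notch, Eph and glucocorticoid lists were still tested. So were 24 of the 30 of the fetal lists and 58 of the 73 of the defence and stress lists.

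**Figure D1:**
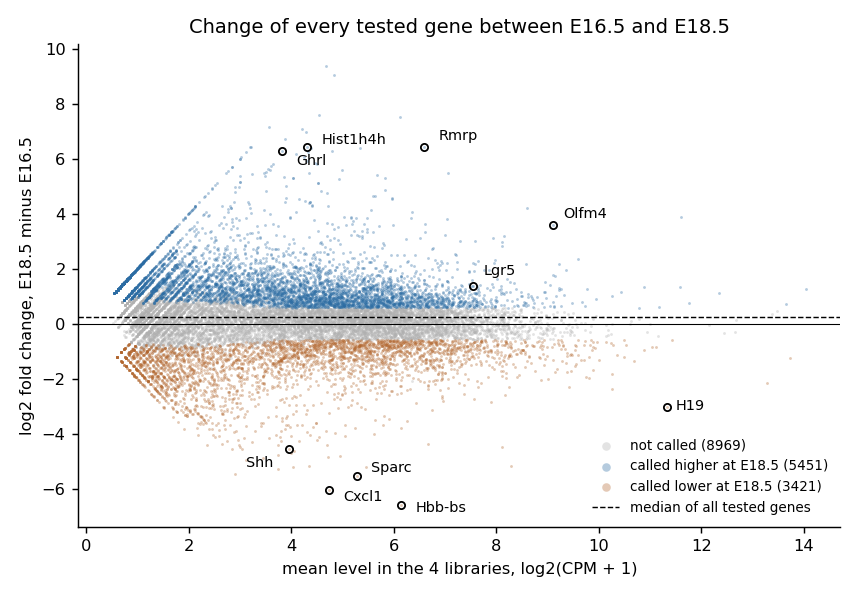
Every tested gene, with its mean level in the 4 libraries on the horizontal axis (log2(CPM + 1)) and its log2 fold change, E18.5 minus E16.5, on the vertical axis; blue and brown points are the 5451 genes called higher and the 3421 called lower, grey points were not called, and the dashed line is the median of 0.23. Ghrl, Hist1h4h, Rmrp and Olfm4 lie at the top, and Hbb-bs, Cxcl1, Sparc and Shh at the bottom.

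Beyond the histone genes described below, the largest rise among the named protein-coding genes was that of Ghrl, which encodes the hormone ghrelin, and the largest fall that of Hbb-bs, an adult beta-globin. Hist1h4h, a copy of the histone H4 gene, led the rises. The 250 bases before the start of each of these 3 genes are shown because they stand at the ends of the ranking; they are the reference sequence of RefSeq (GRCm38.p6), 5′ to 3′ on the strand of the gene, and capitals mark a match to a motif searched on both strands.
Hist1h4h, chr13:23530794-23531043, plus strand: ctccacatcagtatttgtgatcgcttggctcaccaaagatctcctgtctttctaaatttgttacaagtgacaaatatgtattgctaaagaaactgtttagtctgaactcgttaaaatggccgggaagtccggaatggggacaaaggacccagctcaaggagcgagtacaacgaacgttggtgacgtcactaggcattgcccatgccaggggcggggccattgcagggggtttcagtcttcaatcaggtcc
Ghrl, chr6:113719912-113720161, minus strand: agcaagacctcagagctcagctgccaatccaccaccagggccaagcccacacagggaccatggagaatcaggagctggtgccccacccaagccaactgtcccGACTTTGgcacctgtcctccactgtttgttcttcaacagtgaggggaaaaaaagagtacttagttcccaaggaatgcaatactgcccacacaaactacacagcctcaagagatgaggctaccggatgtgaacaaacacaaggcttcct
Hbb-bs, chr7:103827929-103828178, minus strand: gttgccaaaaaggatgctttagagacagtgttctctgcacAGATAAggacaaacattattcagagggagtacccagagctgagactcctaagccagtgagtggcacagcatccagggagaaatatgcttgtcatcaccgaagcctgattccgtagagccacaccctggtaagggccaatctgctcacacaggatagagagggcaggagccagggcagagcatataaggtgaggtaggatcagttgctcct

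The capitals in Ghrl are the letters CAAAGTC of HNF4 on the opposite strand, 148 bases before the start, and those in Hbb-bs are the letters AGATAA of GATA factors, 210 bases before it. Over windows of 300 bases (250 before to 50 after the start) that RefSeq gave for 10833 of the tested genes, the HNF4 letters stood in 5% of those called higher, 4.03% of those called lower and 3.95% of all. The AGATAA letters stood in 6.91%, 5.98% and 6.64%. The TCF/LEF letters ATCAAAG of the Wnt-responsive factors stood in 2.89%, 2.44% and 2.54%. The CDX letters TTTATNG, which can overlap the TATA box letters TATAAA, stood in 8.07%, 7.05% and 7.29%, and those of the TATA box in 9.7%, 8.11% and 7.83%. Without the histone genes described below, the shares among genes called higher were 7.67% for CDX, 8.78% for the TATA box and 6.69% for AGATAA. The AP-1 letters TGANTCA stood in 5.24%, 5.72% and 4.96%. Each of these is a share of promoters with the letters and says nothing of binding.

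The label "stem cells" was checked first against markers of epithelium and of the other cells of the gut wall. Epithelial genes were high at both stages: Epcam, the epithelial adhesion molecule, was at 1279 and 1217 CPM at E16.5 and 1078 and 1059 CPM at E18.5, a log2 fold change of -0.22 ± 0.09 that was not called. Cdh1, which encodes E-cadherin, rose from 329 and 317 to 857 and 873 CPM (1.42 ± 0.09, adjusted p = 0.00026), and Krt8, a keratin of simple epithelia, from 413 and 372 to 927 and 887 CPM. Markers of other cells were present at E16.5 and fell in nearly every list. Of the mesenchymal markers that are not matrix genes, 17 of 18 tested fell and none rose, with a median of -2.49, and their summed level was 451 and 247 CPM at E16.5 against 41.3 and 38.5 CPM at E18.5. Pdgfra, a receptor of fibroblast progenitors, was at 72.9 and 47 CPM at E16.5 and 0.7 and 1.35 CPM at E18.5 (-4.90 ± 0.33, adjusted p = 0.000317), and Zeb2, a transcription factor of mesenchymal and neural crest cells, at 89.4 and 47 CPM at E16.5 and 1.65 and 4.6 CPM at E18.5. Vim, the intermediate filament of mesenchymal cells, fell from 86.3 and 42.4 to 9.95 and 10.1 CPM. Twist1, a defining marker of mesenchyme, was at 0 in both E18.5 embryos and at 0 and 0.55 CPM in the E16.5 pools.

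Smooth muscle markers fell in 9 of 10 tested (median -2.80; sum 612 and 624 CPM at E16.5, 147 and 98.6 at E18.5), among them Myh11, the smooth muscle myosin heavy chain, from 182 and 217 to 21.5 and 9.65 CPM. Endothelial markers fell in 10 of 12 tested (median -1.96), and their sum went from 112 and 47.8 to 9.25 and 13.5 CPM; Kdr, a receptor for VEGF, was at 11 and 4.55 CPM at E16.5 and 0 and 0.25 CPM at E18.5. Erythroid markers fell in 7 of 9 tested (median -1.94) and showed the greatest ratio of sums, 29.7, from 1184 and 1063 to 22.9 and 52.9 CPM. Hbb-bs was at 711 and 676 CPM at E16.5 and 4.2 and 9 CPM at E18.5 (-6.59 ± 0.29, adjusted p = 0.000127) and Hbb-bt, a near-identical copy whose reads may be split with it, at 285 and 248 CPM at E16.5 and 3.25 and 11.2 CPM at E18.5. Immune cell markers fell in 15 of 19 tested and rose in 2, with sums of 191 and 117 and 80.5 and 67.2 CPM; Ptprc, the pan-leukocyte antigen CD45, was at 31.4 and 17.7 CPM at E16.5 and 1.4 and 0.25 CPM at E18.5, while Cd14, a co-receptor for lipopolysaccharide, was among the 2 that rose, at 0 and 0.55 CPM at E16.5 and 7.4 and 9.45 CPM at E18.5. Of the enteric neuron and glia markers, 4 of 7 tested fell, with Ednrb, the endothelin receptor of neural crest cells, going from 86.3 and 42.9 to 1.65 and 2.2 CPM, and the receptor gene Erbb3 rose from 122 and 117 to 206 and 202 CPM. The sum of this list overlapped between the stages, at 236 and 176 CPM at E16.5 and 214 and 215 CPM at E18.5. Sorted KO pools of the same age (homozygous for the DTReGFP allele), which enter only the alternative fit of all 15 sorted libraries, lay between the HE stages in the mesenchymal sum with 68.9 and 155 CPM. In these bulk samples fewer cells of a type and less RNA per cell cannot be told apart. With the filter applied again without an E16.5 pool, only 30 of the 65 called genes of these lists were still tested. The others were tested only through their E16.5 values, so a fall was the one change they could readily show. Of the 65 calls among the 75 genes tested in these lists, 59 and 64 were kept without E16.5 pool 1 or pool 2, and 7 and 6 without E18.5 embryo 1 or 2 (refiltered, 47 and 49 of the 64 still tested).

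**Figure D2:**
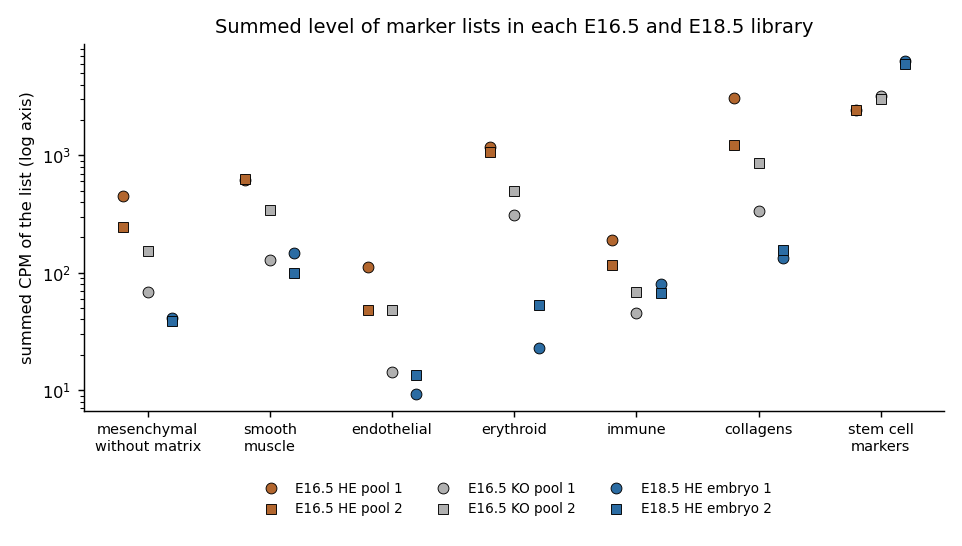
Summed CPM (log axis) of marker lists in each library of E16.5 HE pools (brown), E16.5 KO pools (grey) and E18.5 HE embryos (blue); circles are library 1 and squares library 2 of each group. The mesenchymal, smooth muscle, endothelial, erythroid, immune and collagen sums are lower in both E18.5 embryos than in either E16.5 HE pool, and the stem cell marker sum is higher.

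RNAs that carry no poly(A) tail moved with the stage, among them those of the replication-dependent histone genes, which encode the histones made during DNA replication. Of 67 such genes tested, 63 rose and 1 fell, with a median of 3.21, and their sum went from 1632 and 1756 CPM in the E16.5 pools to 10390 and 11430 CPM in the E18.5 embryos. This list was chosen after the values were seen, since 8 of the 10 largest rises of protein-coding genes were histone genes. Hist1h4h was at 0.8 and 1.55 CPM at E16.5 and 169.5 and 194 CPM at E18.5 (6.41 ± 0.24, adjusted p = 0.000122), Hist1h4d at 5.5 and 2.05 CPM at E16.5 and 376 and 373 CPM at E18.5, and Hist1h3a, an H3 gene of the same cluster, at 1.6 and 2.55 CPM at E16.5 and 124 and 147 CPM at E18.5. The coding parts of these copies are nearly the same, so the split of reads between them is uncertain and the sum is the safer value. Histone genes that are transcribed outside replication and are polyadenylated, also chosen after their values were seen, went the other way: H3f3b was at 922 and 819.7 CPM at E16.5 and 348 and 344 CPM at E18.5 (-1.33 ± 0.10, adjusted p = 0.000399) and H3f3a at 235 and 265 CPM at E16.5 and 126 and 126 CPM at E18.5. H2afz was at 309.6 and 367 CPM at E16.5 and 224 and 233 CPM at E18.5 and was not called. The letters TATAAA stood in 57.6% of the 59 tested histone genes with a promoter window, against 7.83% of all tested genes.

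The same direction was seen in small nuclear RNAs, the RNAs of the spliceosome, of which 68 of 81 tested rose and 2 fell, and whose share of the library was 0.00742% and 0.00806% in the E16.5 pools against 0.299% and 0.274% in the E18.5 embryos. Of the small nucleolar RNAs, 175 of 274 tested rose and 17 fell (0.085% and 0.0915% against 0.39% and 0.385%), and 33 of 36 ribosomal RNA genes rose and none fell. Rmrp, the RNA of the RNase MRP complex, was at 12.6 and 7.1 CPM at E16.5 and 898 and 876 CPM at E18.5 (6.41 ± 0.23, adjusted p = 0.000114), and Rpph1, the RNA of RNase P, at 114 and 76.7 CPM at E16.5 and 881 and 852 CPM at E18.5; both were chosen after their values were seen. Ccdc107, also among the 10 largest rises of protein-coding genes, lies across Rmrp on the opposite strand (Ccdc107 at 43492900 to 43495921 and Rmrp at 43492788 to 43493058 of chromosome 4, GRCm38), and its 897 and 874 CPM at E18.5 cannot be assigned to either gene. The E16.5 KO pools had 0.0121% and 0.00796% of small nuclear RNA and a histone sum of 1501 and 1516 CPM. The small nuclear RNA share was 0.291% to 0.312% in adult sorted cells of the same reporter and 0.0355% to 0.0534% in those of the Cre line. In small nuclear RNA, small nucleolar RNA and these histones all 4 E16.5 libraries lay below the other 11 sorted libraries, and the part of RNA preparation in this was not tested. Without the histone genes, 3339 of 12844 tested protein-coding genes were called higher (26.0%) and 2871 lower (22.4%), with a median of 0.11. Of the 64 histone calls, 62 and 63 were kept without E16.5 pool 1 or 2, and 23 and 21 without E18.5 embryo 1 or 2 (refiltered, 59 and 57 of the 59 still tested).

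**Figure D3:**
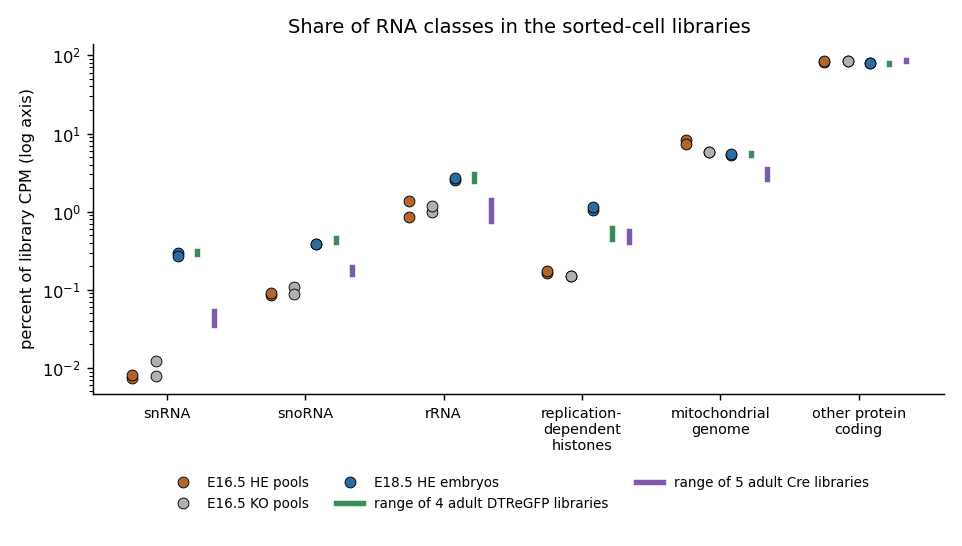
Percent of the CPM of each library (log axis) that fell in each RNA class, for E16.5 HE pools (brown), E16.5 KO pools (grey), E18.5 HE embryos (blue) and, as ranges, 4 adult DTReGFP HE libraries (green) and 5 adult libraries of the tamoxifen-treated Cre line, HE and cKO (violet). Small nuclear RNA, small nucleolar RNA and replication-dependent histone shares are lowest in the 4 E16.5 libraries, and all other protein-coding genes hold 78.9% to 85.6% in the embryonic libraries.

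Intestinal stem cell markers rose at E18.5: 13 of 21 tested were higher and 3 lower, with a median of 0.97 and a sum that went from 2453 and 2447 to 6413 and 5983 CPM. Olfm4, a secreted glycoprotein of crypt base stem cells, changed most, from 152 and 164 CPM at E16.5 to 1941 and 1842 CPM at E18.5, 12-fold (log2 fold change 3.57 ± 0.10 SE, adjusted p = 3.28e-05). Smoc2, a matricellular protein that marks the same cells, rose 4.94-fold from 35.3 and 33.8 to 165 and 176 CPM, and the water channel Aqp4 2.76-fold from 72.9 and 73.7 to 200.4 and 204 CPM. Lgr5, whose promoter drove the GFP that the sort selected, was at 104 and 125 CPM at E16.5 and 306 and 292 CPM at E18.5 (1.38 ± 0.12, adjusted p = 0.000595), and this level depends on where the sorting gate was set. Ascl2, the transcription factor of Wnt-driven stem cells, rose from 8.65 and 9.1 to 20.6 and 17.8 CPM. The markers that fell were Tnfrsf19 (Troy), a receptor of the TNF family, from 17.3 and 17.7 to 1.4 and 2.2 CPM (-2.74 ± 0.32, adjusted p = 0.00139), Hopx, a homeodomain protein associated with slowly dividing stem cells, from 151 and 151 to 39.5 and 41 CPM (-1.88 ± 0.11, adjusted p = 0.000221), and Bmi1, a Polycomb protein, from 67.5 and 95.4 to 49.4 and 41.9 CPM. In the E16.5 KO pools Hopx was at 150.2 and 156 CPM and Tnfrsf19 at 23.8 and 24.3 CPM. The groups overlapped in none of these genes, which holds for every called gene and for 13615 of the 17841 tested.

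The genes of Wnt signalling moved in both directions. Of the Wnt targets and feedback genes, 6 of 18 tested rose and 6 fell (median 0.17). The share that rose lay near the 30.6% called higher among all tested genes, of which 19.2% were called lower. Myc rose from 36.9 and 58.1 to 92.8 and 90.3 CPM and Axin2, a scaffold of the beta-catenin destruction complex, from 122 and 89.3 to 152 and 168 CPM (0.61 ± 0.17, adjusted p = 0.0248), a call lost with TMM scaling and with no filter on low values. The secreted Wnt antagonists Sfrp1 and Dkk3 fell, Sfrp1 from 54.1 and 30.8 to 0.95 and 1.35 CPM (-4.29 ± 0.36, adjusted p = 0.00051) and Dkk3 from 13.4 and 10.1 to 0.7 and 0.25 CPM, and in the KO pools Sfrp1 was at 3.85 and 17.1 CPM, beside a mesenchymal marker sum that was lower there too. Among R-spondin receptors and ligands 3 of 4 tested rose and none fell (median 0.78): Lgr4, the receptor closest to Lgr5, rose from 216 and 222 to 401 and 392 CPM (0.86 ± 0.09, adjusted p = 0.00107), and Rnf43, the ubiquitin ligase that R-spondins block, from 99.6 and 79.2 to 152 and 138 CPM, a call lost with TMM scaling. Of 5 Wnt ligands tested, Wnt5a, a ligand of non-canonical signalling made mostly by mesenchyme, fell from 12.6 and 11.7 to 1.2 and 1.55 CPM (-2.47 ± 0.32, adjusted p = 0.00201), with 0.8 and 4.4 CPM in the KO pools, and the other 4 were not called. Wnt3, the ligand of Paneth cells, was at 1.6 and 0.55 CPM at E16.5 and 2.1 and 1.35 CPM at E18.5 (adjusted p = 0.401), a few reads per library.

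Of the Frizzled and Lrp receptors, through which Wnt ligands act, 2 of 10 tested rose and none fell (median 0.19; 2 and 2 with TMM scaling). Fzd8 rose from 1.6 and 1.55 to 10.2 and 9.45 CPM and the co-receptor Lrp5 from 52.6 and 48 to 87.9 and 97.9 CPM (0.87 ± 0.13, adjusted p = 0.00314). Fzd5, the Frizzled of the crypt, was at 211 and 188 CPM at E16.5 and 286 and 307 CPM at E18.5, a difference with an adjusted p of 0.00692 that stayed under 1.5-fold, and Fzd7 and Lrp6 were at 20.4 and 26.3 CPM at E16.5 and 34.9 and 30.3 CPM at E18.5 and at 227 and 192 CPM at E16.5 and 171 and 159.9 CPM at E18.5, neither called. Heparan sulfate proteoglycans of the cell surface, which bind Wnt ligands, gave 1 rise and 3 falls among 7 tested (median -0.52). Sdc4 rose from 115 and 105 to 245 and 260.2 CPM (1.19 ± 0.11, adjusted p = 0.000617), Sdc1 fell from 103 and 123 to 72.7 and 69.7 CPM, and Gpc6 fell from 65.1 and 35.4 to 3 and 4.6 CPM. Among the 55 genes of the stem cell and Wnt lists, 30 and 26 of the 32 calls were kept without E16.5 pool 1 or 2, and 4 in each case without an E18.5 embryo (refiltered, 27 and 29 of the 32 still tested).

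RNA of the hedgehog ligand Shh and of hedgehog response genes was lower at E18.5. Shh, a ligand that gut epithelium sends to the mesenchyme, was at 53.3 and 103 CPM in the E16.5 pools and 1.85 and 2.65 CPM in the E18.5 embryos, 34.7-fold lower in mean CPM (log2 fold change -4.54 ± 0.35 SE, adjusted p = 0.000432), and the E16.5 KO pools held 92.7 and 109.6 CPM. Ihh, the other epithelial ligand and chosen after its values were seen, was at 33 and 19.2 CPM at E16.5 and 38.1 and 38.6 CPM at E18.5 and was not called. Over the pathway, 8 of 11 tested genes fell and none rose, with a median of -1.91. The response genes that fell are those of mesenchyme: Foxf1 was at 27.5 and 9.6 CPM at E16.5 and 0.25 and 0.9 CPM at E18.5, Hhip, a decoy receptor, at 29 and 11.7 CPM at E16.5 and 0.95 and 1.35 CPM at E18.5, and Gli3 at 21.2 and 10.1 CPM at E16.5 and 1.65 and 0.45 CPM at E18.5. Their levels in the KO pools were lower than in the HE pools for Foxf1 (2.3 and 7.15 CPM) and for Hhip (5.4 and 9.55 CPM), as were the mesenchymal markers, whose part in these falls was not tested.

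In the BMP and TGF-beta pathway 16 of 27 tested genes fell and 4 rose, with a median of -0.92. The ligands Bmp5 and Bmp4 fell, from 48.6 and 15.7 to 0.5 and 0.25 CPM and from 18.9 and 7.6 to 0.25 and 0.45 CPM, as did Grem1, an antagonist made by smooth muscle and fibroblasts, from 14.2 and 24.8 to 1.2 and 1.35 CPM, and Tgfbi, a matrix protein induced by TGF-beta, from 53.3 and 30.3 to 6.5 and 5.05 CPM. Those that rose act inside the responding cell, apart from the ligand Bmp3: Id1, an immediate target, went from 13.4 and 6.6 to 36.5 and 39.3 CPM (1.89 ± 0.32, adjusted p = 0.00487), and the inhibitory Smad6 and Smad7 from 4.75 and 11.1 to 20.3 and 21.5 CPM and from 9.45 and 8.1 to 18.45 and 15.6 CPM, the call of Smad6 being lost in the fit of all 15 sorted libraries and with no filter. Bmp3 was at 29 and 24.8 CPM at E16.5 and 41.6 and 41.4 CPM at E18.5 (0.61 ± 0.16, adjusted p = 0.022) and was not called with TMM scaling. The mesenchymal marker sum fell beside these ligands, and its part was not tested.

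Notch genes, which set the choice between absorptive and secretory fates, gave 9 rises and 4 falls among 19 tested (median 0.60). The direct target Hes1 rose from 46.3 and 36.9 to 108 and 86.3 CPM (1.21 ± 0.17, adjusted p = 0.00284), the feedback regulator Nrarp from 21.2 and 11.7 to 39.7 and 53.3 CPM and the glycosyltransferase Lfng from 6.3 and 3.55 to 19.7 and 18.7 CPM. Notch3, a receptor of mural cells, fell from 18.1 and 9.6 to 1.2 and 0.7 CPM, and Neurog3, the factor that starts the enteroendocrine lineage, from 12.6 and 5.55 to 2.55 and 1.55 CPM. Eph receptors and ephrins, which sort cells along the crypt axis, gave 5 rises and 3 falls among 14 tested. These shares lay near those of all tested genes, 30.6% higher and 19.2% lower. Ephb4 led the rises, from 43.2 and 36.9 to 160.1 and 185 CPM (2.08 ± 0.14, adjusted p = 0.000301). Glucocorticoid-responsive genes gave 1 rise and 1 fall among 11 tested (median 0.13); Fkbp5, a co-chaperone induced by the hormone, fell from 69.8 and 59.6 to 33.5 and 29.8 CPM, and Per1 was at 30.6 and 17.7 CPM at E16.5 and 36.7 and 36.2 CPM at E18.5 (adjusted p = 0.095, not called with TMM scaling, a pseudocount of 0.1 or no filter). Of the 51 calls among the 82 genes of the hedgehog, BMP, Notch, Eph and glucocorticoid lists, 49 and 45 were kept without E16.5 pool 1 or 2, 1 was kept without E18.5 embryo 1 and 0 without embryo 2 (refiltered, 29 and 32 of the 51 still tested).

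Genes of the fetal state were lower at E18.5. Imprinted and fetal growth genes fell in 18 of 26 tested and rose in none (median -1.55), and their sum went from 13540 and 10890 to 3335 and 3444 CPM. H19, a maternally expressed non-coding RNA, was at 8632 and 6178 CPM at E16.5 and 901 and 903 CPM at E18.5 (-3.02 ± 0.17, adjusted p = 0.000187), and Igf2, the paternally expressed growth factor beside it, at 1244 and 1293 CPM at E16.5 and 414 and 464 CPM at E18.5 (-1.53 ± 0.10, adjusted p = 0.000294); both were chosen after their values were seen, for their high level. In the E16.5 KO pools H19 was at 5749 and 6007 CPM and Igf2 at 1145 and 1382 CPM, while adult cells of the reporter held at most 0.4 CPM of H19 and 1.8 CPM of Igf2. Among the steepest falls of the list were those of Peg10, from 27.5 and 18.7 to 0.5 and 0.25 CPM, Mest, from 65.9 and 54.5 to 5.8 and 4.85 CPM, and Dlk1, a Notch-like surface protein, from 22 and 17.7 to 0.95 and 2.2 CPM. In the KO pools Peg10 was at 3.1 and 5.6 CPM and Dlk1 at 5.4 and 14.7 CPM, lower than in the HE pools, as was the mesenchymal sum, whose part in these falls was not tested.

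Markers of fetal and regenerating epithelium fell in 10 of 17 tested and rose in 2 (median -1.37). Cyr61, a target of the mechanosensitive YAP pathway, was at 393 and 257 CPM at E16.5 and 38.3 and 32.7 CPM at E18.5 (-3.13 ± 0.21, adjusted p = 0.000301), with 495 and 368 CPM in the KO pools. Anxa1, an annexin of fetal spheroids, fell from 18.9 and 27.8 to 2.55 and 4.2 CPM with 21.5 and 23.1 CPM in the KO pools, and Spp1 (osteopontin) from 10.2 and 4.55 to 0.25 and 0.7 CPM. Clu, a marker of revival stem cells, was among the 2 that rose, at 0.8 and 1.05 CPM at E16.5 and 2.35 and 2.65 CPM at E18.5 (not called with the replicate block or in the fit of all 15 sorted libraries), and the other was Msln at 0 and 0 CPM at E16.5 and 1.2 and 1.1 CPM at E18.5, both low levels. Midkine (Mdk), a heparin-binding growth factor of embryonic tissues and among the 10 largest falls of called protein-coding or named long non-coding genes of at least 10 CPM, went from 90.2 and 107 to 1.4 and 2 CPM (-5.21 ± 0.24, adjusted p = 0.000136), with 50.6 and 83.4 CPM in the KO pools. Of the 30 calls among the 43 genes of the fetal lists, 26 and 29 were kept without E16.5 pool 1 or 2, and 4 in each case without an E18.5 embryo (refiltered, 26 and 25 of the 29 still tested).

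**Figure D4:**
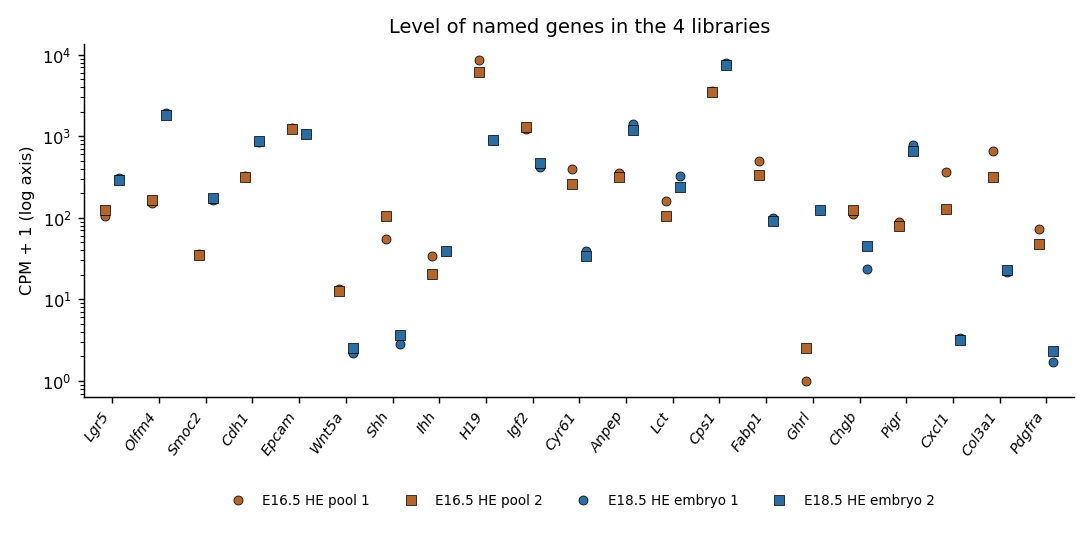
CPM + 1 (log axis) of named genes in the E16.5 HE pools (brown) and the E18.5 HE embryos (blue), circles for library 1 and squares for library 2. Lgr5, Olfm4, Smoc2, Cdh1, Anpep, Cps1, Ghrl and Pigr are higher in both embryos than in either pool, and Wnt5a, Shh, H19, Igf2, Cyr61, Fabp1, Chgb, Cxcl1, Col3a1 and Pdgfra are lower.

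Genes of absorptive cells rose in most lists, although fatty acid carriers fell. Of the brush border hydrolases and structural proteins, 11 of 21 tested rose and 2 fell (median 0.69; sum 2767 and 2613 CPM at E16.5 and 4800 and 4331 at E18.5). Anpep, the aminopeptidase N of the brush border, rose 3.88-fold from 354 and 316 to 1409 and 1192 CPM (1.95 ± 0.12, adjusted p = 0.000234), and Naaladl1, a dipeptidase, from 11.8 and 6.6 to 45.7 and 38.2 CPM. Alpi, the intestinal alkaline phosphatase, rose from 49.4 and 32.8 to 142 and 119 CPM, and Lct, the enzyme that splits the sugar of milk, from 159 and 103 to 328 and 240.1 CPM (1.13 ± 0.23, adjusted p = 0.00994). Sis, the sucrase that serves a solid diet, was at 3.95 and 5.05 CPM at E16.5 and 4.4 and 9.9 CPM at E18.5 and was not called. The 2 that fell were Espn, an actin bundler, from 57.3 and 50.0 to 20.1 and 29.6 CPM, and Enpep, an aminopeptidase, from 89.4 and 79.7 to 53.1 and 36.2 CPM.

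Nutrient and ion transporters rose in 18 of 27 tested and fell in none (median 0.87). Slc26a3, the chloride and bicarbonate exchanger, rose from 27.5 and 24.3 to 125 and 111 CPM (2.14 ± 0.14, adjusted p = 0.000291), and Slc15a1, the peptide transporter PEPT1, from 2.4 and 3.05 to 14.8 and 16.9 CPM. Arginine and citrulline metabolism, by which the newborn gut makes arginine, gave 6 rises and no fall among 12 tested (median 0.57; 2 falls with TMM scaling): Cps1, the mitochondrial enzyme that feeds ammonia into citrulline, rose from 3560 and 3503 to 7863 and 7487 CPM (1.12 ± 0.11, adjusted p = 0.000856), and Ass1, which turns citrulline towards arginine, from 91.7 and 70.7 to 157 and 167 CPM (1.00 ± 0.15, adjusted p = 0.00319). In the lipid and bile acid list 14 of 29 tested rose and 4 fell (median 0.64), but with TMM scaling 6 rose and 4 fell. Npc1l1, the cholesterol importer, rose from 18.9 and 17.2 to 77.5 and 70.8 CPM (1.98 ± 0.15, adjusted p = 0.000414), and Dgat1, which makes triglyceride, from 29 and 13.7 to 107 and 111 CPM. The intracellular fatty acid carriers went down: Fabp1 from 497 and 333 to 99 and 91.2 CPM (-2.09 ± 0.19, adjusted p = 0.000656) and Fabp2 from 606 and 601 to 277 and 244 CPM (-1.21 ± 0.10, adjusted p = 0.000548), as did the fatty acid receptor Cd36, from 33.8 and 27.8 to 5.8 and 8.8 CPM. In the E16.5 KO pools Fabp1 was at 139 and 112 CPM.

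Genes of neonatal endocytosis, the route by which suckling enterocytes take up milk protein, gave 5 rises and 6 falls among 15 tested (median 0.08; 3 and 7 with TMM scaling). Amn, which with cubilin forms an uptake receptor, rose from 10.2 and 14.2 to 29.6 and 33.1 CPM, Prdm1, the repressor that holds the neonatal programme, from 58 and 47.5 to 101 and 106 CPM, and Mamdc4, an endosomal protein of these cells, from 306 and 309 to 593 and 419 CPM, the last not called with TMM scaling. The falls were mostly cathepsins, the proteases of the lysosome: Ctsl went from 154 and 105 to 20.8 and 22.2 CPM (-2.52 ± 0.20, adjusted p = 0.000447) and Ctsz from 175 and 154 to 66.9 and 61.6 CPM. Of the 66 calls among the 104 genes of the absorptive lists, 61 and 55 were kept without E16.5 pool 1 or 2, and 4 in each case without an E18.5 embryo (refiltered, 43 and 57 of the 63 still tested).

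Transcription factors of the gut epithelium rose as a list, 20 of 34 tested against 1 fall, with a median of 0.74. Gata4, the factor of the proximal small intestine, rose 4.93-fold from 22 and 18.2 to 101 and 96.9 CPM (2.25 ± 0.15, adjusted p = 0.000306), Vdr, the vitamin D receptor, 4.87-fold from 22.8 and 18.7 to 101 and 101 CPM, and Elf3, an epithelial Ets factor, 4.36-fold from 70.6 and 44.4 to 246 and 255 CPM. Pdx1, a factor of duodenum and pancreas, rose from 3.15 and 1.55 to 10.7 and 12.3 CPM. Klf4, the factor of differentiated and goblet cells and also an immediate early gene, was the fall, from 89.4 and 53.5 to 23.6 and 25.7 CPM. Of the epithelial identity and junction genes, 9 of 23 tested rose and 4 fell (median 0.23, that of all genes). Cldn15, a claudin that forms sodium-permeable channels, rose 6.03-fold from 19.6 and 12.7 to 107 and 87.7 CPM (2.54 ± 0.23, adjusted p = 0.00066), and F11r, the junctional adhesion molecule A, fell from 144 and 125 to 46.9 and 45.4 CPM. Of the 34 calls among these 57 genes, 33 and 31 were kept without E16.5 pool 1 or 2, 1 without E18.5 embryo 1 and 0 without embryo 2 (refiltered, 28 and 30 of the 34 still tested).

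**Figure D5:**
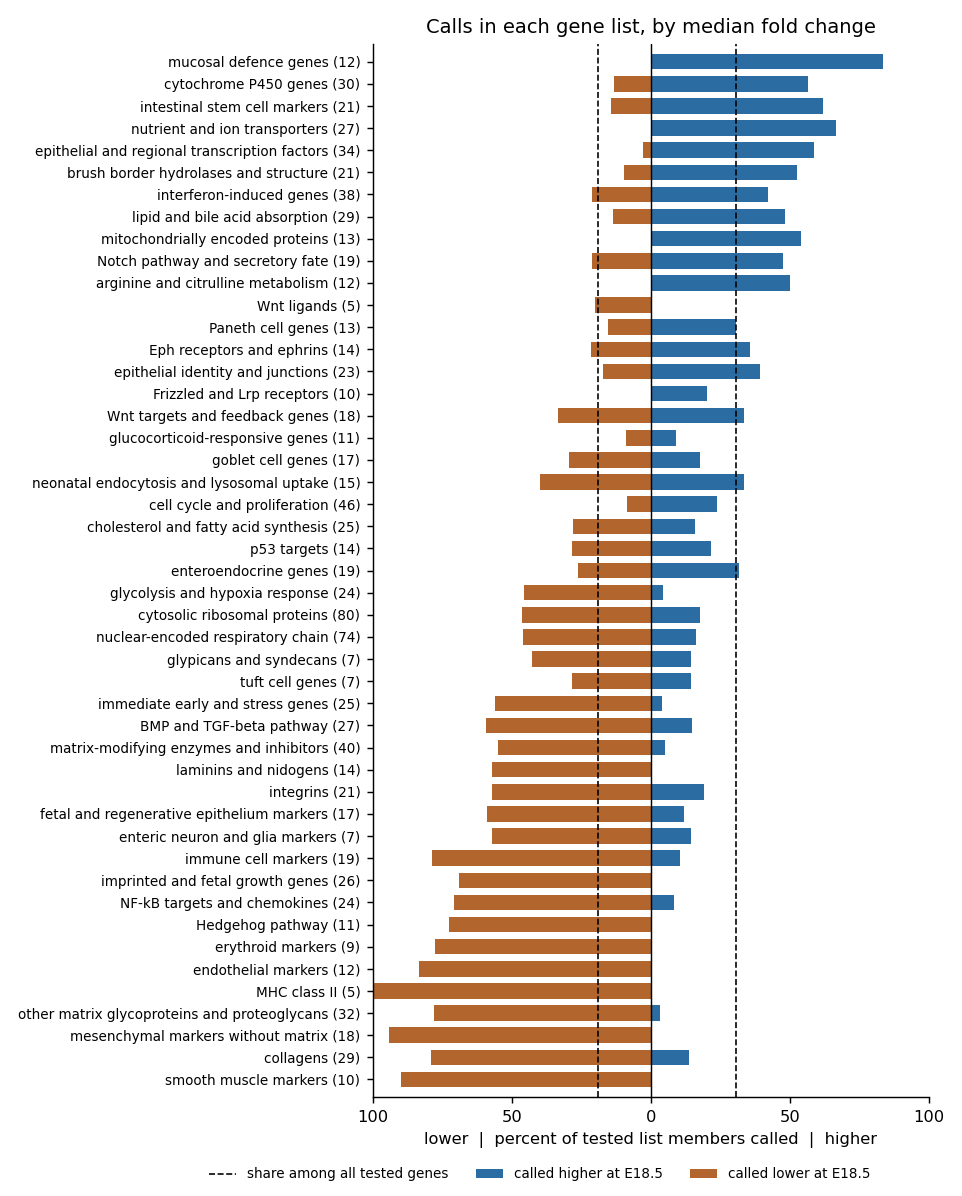
Percent of the tested members of each gene list (number tested in parentheses) called higher (blue, to the right) or lower (brown, to the left) at E18.5, ordered by the median log2 fold change; dashed lines mark the shares among all tested genes, 30.6% higher and 19.2% lower. Mucosal defence genes, P450 genes, stem cell markers and transporters stand at the top, and smooth muscle markers, collagens and mesenchymal markers at the bottom.

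Secretory lineage genes rose and fell within each list, where 30.6% of all tested genes were called higher and 19.2% lower. The shares in the Paneth list and the share of rises in the enteroendocrine list lay near these. Enteroendocrine genes gave 6 rises and 5 falls among 19 tested (median -0.25): Ghrl rose from 0 and 1.55 to 123 and 124 CPM (6.28 ± 0.44, adjusted p = 0.000346), the hormone precursor Nts from 0 and 0.55 to 2.55 and 5.5 CPM and Chga, a granule protein, from 3.15 and 1.55 to 6.95 and 17.8 CPM (not called with no filter on low values), whereas Insm1, a factor of endocrine progenitors, fell from 18.9 and 15.2 to 2.8 and 0.9 CPM (-2.74 ± 0.42, adjusted p = 0.00348) and Chgb, another granule protein, from 109.8 and 125 to 22.6 and 44.3 CPM. The E16.5 KO pools held 1.95 and 3.6 CPM of Ghrl and adult cells of the reporter at most 4.85 CPM. Goblet cell genes gave 3 rises and 5 falls among 17 tested (median 0.09), with Muc2, the main mucin, at 33.8 and 16.7 CPM at E16.5 and 74.3 and 43.4 CPM at E18.5 (1.22 ± 0.38, adjusted p = 0.0366, not called with no filter on low values) and Tff3, the trefoil peptide, falling from 128 and 121 to 60.9 and 60.5 CPM (-1.02 ± 0.11, adjusted p = 0.00113). Muc6, a gastric-type mucin that is in no list and was chosen after its values were seen, rose from 14.9 and 6.1 to 205 and 451 CPM, with a wide gap between the embryos.

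Paneth cell genes gave 4 rises and 2 falls among 13 tested (median 0.25). Itln1, a lectin, rose from 5.5 and 8.6 to 37.2 and 38.8 CPM (2.30 ± 0.26, adjusted p = 0.00123) and the defensin Defa24 from 39.2 and 36.4 to 73.6 and 68.4 CPM, while Defa17, another defensin, was at 29.8 and 24.8 CPM at E16.5 and 19.9 and 20.6 CPM at E18.5 and was not called; defensin copies share reads, so their split is uncertain. Habp2 fell from 14.2 and 16.2 to 4.4 and 3.55 CPM. Of 7 tuft cell genes tested, 1 rose and 2 fell, with Ptgs1, a cyclooxygenase that other cells of the gut wall also express, falling from a mean of 15.6 ± 1.31 to 0.35 ± 0.495 CPM. Of the 28 calls among the 56 genes of the secretory lists, 24 and 22 were kept without E16.5 pool 1 or 2, 0 without E18.5 embryo 1 and 1 without embryo 2 (refiltered, 18 and 19 of the 25 still tested).

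Of 46 cell cycle genes tested, 11 rose, 4 fell and 31 were not called, with a median of 0.08, and the sum was 6869 and 8036 CPM at E16.5 and 7342 and 7616 CPM at E18.5. Counts of this and the next lists stand beside shares of 30.6% higher and 19.2% lower among all tested genes. Mki67, the proliferation antigen, chosen after its values were seen as the usual single marker, was at 1404 and 1718 CPM at E16.5 and 1495 and 1617 CPM at E18.5 (log2 fold change 0.00 ± 0.13 SE, its sign changing with the scaling). Cdk2, the kinase of S phase entry, rose from a mean of 15.6 ± 1.31 (SD, n = 2) to 48.5 ± 1.94 CPM (1.58 ± 0.17, adjusted p = 0.00107), Ccnb2 from 42.4 and 41.4 to 86.5 and 94.7 CPM and the mitotic ubiquitin enzyme Ube2c from 72.2 and 71.7 to 147 and 157 CPM, whereas Pcna, the sliding clamp of DNA polymerase, fell from 314 and 457 to 184 and 168 CPM (-1.10 ± 0.18, adjusted p = 0.00429) and Rrm2, a subunit of ribonucleotide reductase, from 109.8 and 128 to 58.9 and 68.4 CPM. The replication-dependent histone RNAs, described above, rose beside a cell cycle list whose median lay below that of all genes. The p53 targets gave 3 rises and 4 falls among 14 tested (median -0.10), with Perp at 39.2 and 30.8 CPM at E16.5 and 72.9 and 71.4 CPM at E18.5.

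Cytosolic ribosomal protein genes fell in 37 of 80 tested and rose in 14 (median -0.42; sum 44220 and 53720 CPM at E16.5 and 31170 and 29950 at E18.5), yet single members went far in opposite directions. Rps3 fell 5.22-fold from 2619 and 3001 to 549 and 528 CPM (-2.38 ± 0.11, adjusted p = 0.000133) and Rpl11 4.95-fold from 1343 and 1705 to 318 and 298 CPM, while Rps29 rose 8.59-fold from 21.2 and 29.8 to 217 and 221 CPM (3.07 ± 0.17, adjusted p = 0.000193) and Rps26 5.04-fold from 114 and 110 to 575 and 552 CPM. These proteins stand in the same ribosome, and their genes have many processed copies that can take or share reads, so the single values are uncertain. The E16.5 KO pools held 2289 and 2264 CPM of Rps3 and 28.8 and 32.2 CPM of Rps29. The nuclear-encoded respiratory chain showed the same split, 34 falls and 12 rises among 74 tested (median -0.43): Cox7c fell from 429.5 and 455 to 96 and 98.4 CPM (-2.17 ± 0.10, adjusted p = 0.000127) and Ndufa11 rose from 7.1 and 7.6 to 32.1 and 34.9 CPM (2.05 ± 0.21, adjusted p = 0.000957). These splits moved with the same libraries as the RNA classes without poly(A) tails, and the part of library preparation in them was not tested.

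Of 13 mitochondrially encoded protein genes tested, 7 rose and none fell (median 0.62), among them mt-Nd1 from 1843 and 2039 to 4894 and 4895 CPM (1.34 ± 0.11, adjusted p = 0.000483). Their sum was 33590 and 34790 CPM at E16.5 and 38830 and 39650 CPM at E18.5. The share of the library on the whole mitochondrial genome was lower, at 8.21% and 7.24% at E16.5 and 5.38% and 5.47% at E18.5. This fall therefore lay in mitochondrial genes that do not encode proteins. Of all 37 mitochondrial genes tested, 25 were called higher and 3 lower. Cholesterol and fatty acid synthesis gave 4 rises and 7 falls among 25 tested, and 14 were not called (median -0.08). With TMM scaling 3 rose and 9 fell. The shares among all tested genes were 30.6% higher and 19.2% lower. Srebf1, the transcription factor of lipogenesis, rose from 41.6 and 33.8 to 165 and 172 CPM (2.14 ± 0.14, adjusted p = 0.000274) and Fasn, the fatty acid synthase, from 204 and 186 to 358 and 327 CPM, while the sterol enzymes Fdft1 and Cyp51 fell from 125 and 153 to 55.6 and 39.7 CPM and from 184 and 187 to 76.8 and 76 CPM. Glycolysis and hypoxia genes fell in 11 of 24 tested and rose in 1 (median -0.32), led by the hexokinases Hk1 (10.2 and 7.6 CPM at E16.5 and 0.7 and 1.55 CPM at E18.5) and Hk2 (33 and 32.8 CPM at E16.5 and 9.25 and 11.4 CPM at E18.5), and the exception was the carbonic anhydrase Car9 (22 and 17.2 CPM at E16.5 and 48.2 and 41.4 CPM at E18.5). Cytochrome P450 genes, which oxidise lipids and foreign compounds, rose in 17 of 30 tested and fell in 4 (median 1.06); Cyp4f16 rose from 11.8 and 10.6 to 60.2 and 56.6 CPM, and Cyp4f37 was listed at 0 in both E16.5 pools and at 17.3 and 16 CPM in the E18.5 embryos. Of the 170 calls among the 306 genes of the growth and metabolism lists, 156 and 158 were kept without E16.5 pool 1 or 2, and 8 and 9 without E18.5 embryo 1 or 2 (refiltered, 142 and 144 of the 168 still tested).

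Matrix genes were lower at E18.5. Collagens fell in 23 of 29 tested and rose in 4, with a median of -2.59 and a sum of 3080 and 1238 CPM at E16.5 against 135 and 157 CPM at E18.5. Col3a1, a fibrillar collagen of fibroblasts, was at 662 and 318 CPM at E16.5 and 20.6 and 22.2 CPM at E18.5 (-4.36 ± 0.31, adjusted p = 0.000368), Col1a1 at 435 and 154 CPM at E16.5 and 19.4 and 23.7 CPM at E18.5 (-3.54 ± 0.44, adjusted p = 0.00174) and Col14a1 at 165 and 89.3 CPM at E16.5 and 2.35 and 2.45 CPM at E18.5 (-5.17 ± 0.31, adjusted p = 0.00022). The 4 that rose stayed at or under 4.2 CPM, with Col20a1 listed at 0 in both E16.5 pools and at 4.2 and 2.45 CPM in the E18.5 embryos. Sparc, a collagen-binding glycoprotein, fell 59.8-fold in mean CPM from 393 and 175 to 4.2 and 5.3 CPM (-5.52 ± 0.36, adjusted p = 0.000291), and the list of other glycoproteins and proteoglycans fell in 25 of 32 tested (median -2.47). Its single rise was Fbln1, from 54.1 and 28.3 to 105 and 111 CPM (1.44 ± 0.28, adjusted p = 0.00805). Matrix-modifying enzymes fell in 22 of 40 tested and rose in 2 (median -1.15): Adamts4, a protease of proteoglycans, was at 80.8 and 29.3 CPM at E16.5 and 0 and 0.25 CPM at E18.5 and Lox, which cross-links collagen, at 37.7 and 21.2 CPM at E16.5 and 1.65 and 0.45 CPM at E18.5, while Mmp14, a membrane-bound protease, rose from a mean of 12.8 ± 5.23 to 30.1 ± 4.45 CPM.

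Laminins and nidogens, the basement membrane proteins, fell in 8 of 14 tested and rose in none (median -1.22). Lama4 and Lamb1, chains of mesenchymal and vascular laminins, fell from 71.4 and 31.8 to 0.7 and 0.45 CPM and from 98.8 and 60.1 to 5.55 and 5.3 CPM. Integrins, the receptors for these proteins, fell in 12 of 21 tested and rose in 4 (median -1.36), and those that rose are subunits of epithelial laminin and collagen receptors: Itga3 went from 25.1 and 27.8 to 111 and 99.9 CPM (1.96 ± 0.14, adjusted p = 0.000353), Itgb4 from 19.6 and 29.3 to 77.1 and 87.9 CPM, Itga6 from 176 and 209 to 413 and 408 CPM (1.10 ± 0.11, adjusted p = 0.000986) and Itga2 from 40.8 and 47 to 88.8 and 89.4 CPM. Itga9 and Itga8, subunits of mesenchymal and muscle cells, fell from 48.6 and 22.2 to 0.7 and 0.9 CPM and from 19.6 and 9.6 to 0.25 and 0.7 CPM. Within the E16.5 HE group the pool with the higher mesenchymal sum (pool 1) also had the higher collagen sum, and the KO pools, with mesenchymal sums of 68.9 and 155 CPM, had collagen sums of 338 and 858 CPM. The part of mesenchymal cells in the fall of matrix genes was not tested. With the filter applied again without an E16.5 pool, 74 of the 101 called genes of these lists were still tested. The others were tested only through their E16.5 values. Of the 101 calls among these 136 genes, 93 and 99 were kept without E16.5 pool 1 or 2, and 2 and 3 without E18.5 embryo 1 or 2 (refiltered, 77 and 77 of the 96 still tested).

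Genes of defence at the mucosal surface rose, whereas chemokines and MHC class II genes fell. Of the mucosal defence genes 10 of 12 tested rose and none fell (median 1.61; 9 rises and 1 fall with TMM scaling; sum 440 and 433 CPM at E16.5 and 1930 and 1802 CPM at E18.5). Pigr, the receptor that carries immunoglobulin A across the epithelium, rose 8.66-fold from 88.6 and 78.2 to 789.6 and 656 CPM (3.10 ± 0.13, adjusted p = 0.000126), and Tlr5, the receptor for flagellin, from 4.75 and 6.6 to 26.3 and 21.7 CPM (1.91 ± 0.27, adjusted p = 0.00272). Reg1, a secreted C-type lectin, rose from 0 and 1.05 to 52.2 and 36 CPM. Among NF-kB targets and chemokines 17 of 24 tested fell and 2 rose (median -1.66): Cxcl1, a neutrophil chemokine, fell 108-fold in mean CPM from 362 and 128 to 2.35 and 2.2 CPM (-6.05 ± 0.45, adjusted p = 0.000397), with 57.5 and 63.2 CPM in the KO pools, and Il1b from 23.6 and 5.05 to 0.25 and 0.25 CPM. MHC class II genes fell in 5 of 5 tested (median -2.26), with Cd74, the invariant chain, at 32.2 and 16.7 CPM at E16.5 and 0.7 and 2 CPM at E18.5. Both lists moved beside the immune cell markers given above, whose part in them was not tested.

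Interferon-induced genes gave 16 rises and 8 falls among 38 tested (median 0.66). Tapbp, which loads peptides on class I molecules, rose from 8.65 and 8.6 to 42 and 44.7 CPM (2.20 ± 0.19, adjusted p = 0.000569) and the regulator Irf7 from 2.4 and 1.05 to 8.35 and 6.8 CPM, while Cxcl10, a chemokine for T cells, fell from 96.4 and 49 to 0.7 and 2.85 CPM (-4.77 ± 0.49, adjusted p = 0.000912) and Isg15 from 3.95 and 1.55 to 0.25 and 0 CPM. Immediate early and stress genes, which can rise during tissue dissociation, fell in 14 of 25 tested and rose in 1 (median -0.72; sum 4286 and 2924 CPM at E16.5 and 2166 and 2275 CPM at E18.5). Egr2 fell from 40.8 and 32.3 to 4.65 and 2.65 CPM (-3.04 ± 0.31, adjusted p = 0.000896) and Nr4a1 from 40.8 and 30.3 to 9.5 and 11.7 CPM, and Ier2 was the rise, from 62 and 59.1 to 90.2 and 99.7 CPM, and was not called with TMM scaling. The part of tissue handling in these or other results was not tested. Of the 73 calls among the 104 genes of these lists, 66 and 71 were kept without E16.5 pool 1 or 2, and 5 in each case without an E18.5 embryo (refiltered, 51 and 51 of the 68 still tested).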

How the data were processed

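RNA-seq of GFP+ve cells sorted from Lgr5-DTReGFP HE small intestine was analysed in 2 E16.5 pools and 2 E18.5 embryos. Per the labels and the methods of the study, total RNA was extracted with a micro column kit, libraries were made with the Ovation SoLo kit (the methods also name NEBNext, without saying for which samples), reads were trimmed with Trimmomatic 0.36, aligned to GRCm38.p4 (mm10) with STAR 2.5.3a and counted with HTSeq 0.9.1. The deposited CPM values were made by the authors from these gene counts, scaled by the total on genes in each library and printed in steps; samples were matched to columns by the labels. The total reads per library, from 1275949 to 4565902, were recovered from the step of the CPM values; whole reads could not be recovered with confidence in the E18.5 embryos, so a count test was not used.

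Genes with 1 CPM or more in at least 2 of the 4 libraries were tested with limma 3.58.1 (R 4.3.3) on log2(CPM + 1), with an intensity trend and Benjamini-Hochberg adjustment over all tested genes; X and Y genes were in the fit and left out of every count. A gene was called at an adjusted p under 0.1 and a fold change over 1.5, and ± after a log2 fold change is its SE. TMM factors came from edgeR 4.0.16. The stages were compared with n = 2 each, so p-values measure the spread between these libraries. On simulated data with a dispersion of 0.05 in both stages and 18433 genes tested, limma called 92% of 100 genes changed by a log2 fold of 2, 10% of 100 changed by 1 and 5 unchanged genes. Far fewer genes changed there than were called in the data, where the spread also differed between pools and embryos. The simulation therefore does not give the share of false calls in the data.

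The comparison, the gene lists and the rule for named genes were chosen with earlier results of these data known. The rule named the 10 largest rises and falls among called protein-coding or named long non-coding genes of at least 10 CPM whose stages did not overlap, up to 4 called members per direction of each list, and genes the study discusses for sorted cells; other names are marked as chosen after their values were seen, and 1 gene that the rule named is not reported here. Alternatives were TMM scaling, another pseudocount, other filters, a fit of all 15 sorted-cell libraries, the replicate block, genes outside X and Y alone and leaving out each library. Same-numbered libraries of the stages did not deviate together (correlation over 17841 genes -0.0111), so the numbers do not pair them. Promoter windows are from RefSeq tables of GRCm38.p6, matched by symbol or a unique older symbol. Columns of the table for other sorted samples were used in the fit of all 15 libraries and as values set beside these.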

Additional observations from a re-analysis of the deposited data

How the results depend on the processing

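The 8872 calls kept their direction under every alternative in which they were tested. The stages did not overlap in any called gene, named or not, so only TMM scaling could have changed a direction. From 8286 to 9194 genes were called under TMM scaling, a pseudocount of 0.1, no filter, the fit of all 15 sorted-cell libraries, an adjusted p under 0.05 without a fold limit and genes outside X and Y alone. When genes had to average 10 CPM or more, 9934 were tested and 5069 called, 3037 higher and 2032 lower. Leaving out a library gave 748 to 9701 calls, 650 to 6137 higher and 98 to 3705 lower, the low ends without an E18.5 embryo, where no adjusted p fell under 0.05. With the filter applied again to the 3 libraries left, chosen after seeing the data, 5209 and 5269 genes were called without E18.5 embryo 1 and 2, 2774 and 2869 of them higher, with an adjusted p under 0.05 in 4278 and 4373, so that the low ends went with the filter. All 163 called genes named in the text kept their direction, of which 23 stayed called without E18.5 embryo 1 and 23 without embryo 2; with the filter applied again, 150 of the 158 still tested stayed called without embryo 1 and 150 without embryo 2. Mki67, not called, went to -0.14 with TMM scaling and ranged from -0.14 to 0.15 when a library was left out (-0.05 without E18.5 embryo 2 and the filter applied again), and Sis, not called, from -0.02 to 0.99. The replicate block gave 9138 calls, 5677 higher and 3461 lower; among named genes only the call of Clu was lost, and the numbers do not pair the libraries. The planned count tests with edgeR and DESeq2 on recovered reads were not run, because the values of the E18.5 embryos did not return whole reads. Depth limits low genes most in the E16.5 pools, where 1 read is 0.784 and 0.504 CPM.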
